A study of Mus musculus with 3 samples.

Results

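The genes of the Rab3 vesicle GTPases and of the Rim and rabphilin proteins that bind them were read in single nuclei of mouse prefrontal cortex (PFC). The set was a fixed list of 8 genes (*Rab3a*, *Rab3b*, *Rab3c*, *Rab3d*, *Rims1*, *Rims2*, *Rims3* and *Rph3a*), and all 8 were among the 32285 genes of each count matrix. The rule sets no limit on a measured value. They were followed in every cell class of 3 libraries. The C57BL/6J library came from 1 pool of 5 mice, and the *Nav1* KO library from 1 pool of 4 mice on the C57BL/6J background, in which CRISPR had removed the end of exon 1 of *Nav1* from the germline, so that no cell type was targeted. The third library came from the inbred strain BTBR T<+> Itpr3<tf>/J, and neither the labels nor the paper state how many mice it pooled. The labels give all 3 groups as male and 6 to 8 weeks old and name no treatment. Nuclei were sorted on NeuN, a nuclear protein of neurons, and nuclei with and without it were both kept. Shares of classes are not compared. Each group was 1 library, so no difference between libraries could be tested. Intervals are 95% and cover counting error only.

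Rab3 proteins are small GTPases that sit on synaptic vesicles in their GTP form and leave the membrane once GTP is hydrolysed. Rim proteins are scaffolds of the presynaptic active zone. The large forms of Rim1 and Rim2 bind Rab3 and Munc13 and help to bring vesicles and calcium channels together, while the Rims3 gene encodes a short form that lacks the Rab3-binding end. Rabphilin, encoded by *Rph3a*, is a vesicle protein with calcium-binding C2 domains that also binds Rab3. *Rab3a* is known as the main family member of brain synapses, and *Rab3d* is known best from secretory cells outside the brain.

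The coordinates below are of GRCm38 with GENCODE vM21 genes. *Rab3a* (ENSMUSG00000031840) lies on the plus strand of chromosome 8 from 70754679 to 70758677, and *Rab3b* (ENSMUSG00000003411) on the plus strand of chromosome 4 from 108879063 to 108943324. *Rab3c* (ENSMUSG00000021700) lies on the minus strand of chromosome 13 from 110054187 to 110280996, and *Rab3d* (ENSMUSG00000019066) on the minus strand of chromosome 9 from 21907491 to 21918192. *Rims1* (ENSMUSG00000041670) spans chromosome 1 from 22286251 to 22805994 on the minus strand, *Rims2* (ENSMUSG00000037386) spans chromosome 15 from 39198261 to 39684372 on the plus strand, *Rims3* (ENSMUSG00000032890) spans chromosome 4 from 120854816 to 120896579 on the plus strand, and *Rph3a* (ENSMUSG00000029608) spans chromosome 5 from 120940499 to 121010092 on the minus strand. The 3′ end of *Rab3a* overlaps *Mpv17l2*, and the 3′ end of *Rab3b* overlaps the antisense gene *8030443G20Rik*, each on the opposite strand. Both neighbours were in the count table as genes of their own. *Gm42656* lies within *Rph3a* on the same strand and was not in the count table.

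Promoters are shown for the 4 Rab3 paralogs, because these genes differed most from each other between neuron classes. Each line gives the 120 bases before the RefSeq start (GRCm38.p6), 5′ to 3′ on the gene's strand. The windows are chr8:70754583-70754702 (plus) for *Rab3a*, chr4:108878950-108879069 (plus) for *Rab3b*, chr13:110280207-110280326 (minus) for *Rab3c* and chr9:21918184-21918303 (minus) for *Rab3d*. Capitals mark the letters GGGCGG (a GC box), TGACG (the core of a CRE, a cAMP response element) and TATAAA, read on either strand, and runs of adjoining matches are in capitals throughout.
Rab3a: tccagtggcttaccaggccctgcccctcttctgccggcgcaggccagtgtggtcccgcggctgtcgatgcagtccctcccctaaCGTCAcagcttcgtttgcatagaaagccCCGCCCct
Rab3b: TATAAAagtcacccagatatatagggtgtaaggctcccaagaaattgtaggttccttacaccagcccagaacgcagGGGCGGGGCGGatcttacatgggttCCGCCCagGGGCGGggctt
Rab3c: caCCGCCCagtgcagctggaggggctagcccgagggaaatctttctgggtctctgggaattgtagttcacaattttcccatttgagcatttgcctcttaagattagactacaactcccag
Rab3d: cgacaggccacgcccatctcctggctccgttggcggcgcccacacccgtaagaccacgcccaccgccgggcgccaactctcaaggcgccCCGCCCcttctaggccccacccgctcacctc
Within 250 bases before the start, GGGCGG was found 4 times for *Rab3b*, 2 times for *Rab3a*, 2 times for *Rab3d* and 1 time for *Rab3c*. Of 32851 mouse promoters, 32.7% held at least 1 match. TGACG was found once each for *Rab3a*, *Rab3b* and *Rab3d* and not for *Rab3c* (17.8% of promoters), TATAAA only for *Rab3b* among the 4 (12.4%), CCAAT 2 times for *Rab3a* and once for *Rab3c* (33.8%), and CACGTG for none (6.02%). A match says only that the letters are present. The start used for *Rab3c* lies 790 bases downstream of the GENCODE gene start. The bases shown for *Rab3c* therefore lie within the GENCODE gene, outside its exons. The last 24 bases shown for *Rab3a*, the last 7 for *Rab3b* and the last 9 for *Rab3d* lie inside GENCODE exons. Those of *Rab3a* include its capitalised GC box. RefSeq promoters were matched for 7 of the 8 genes, and *Rims2* had none.

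After nuclei with fewer than 200 genes or with 10% or more mitochondrial counts were set aside, 14630 C57BL/6J, 14056 *Nav1* KO and 14777 BTBR nuclei remained, with medians of 2074, 2754 and 2510 UMIs. Between 55 and 66 cell barcodes were shared by a pair of libraries, which is at most 0.451% of a library. Classes were named from markers and the names stand for nuclei that resemble that class. The excitatory neuron class held 6395, 6140 and 6351 nuclei, and the cortical interneuron class 777, 482 and 925, each in the order C57BL/6J, *Nav1* KO and BTBR, which is the order of all triplets that follow. Layer 2/3-like nuclei were the largest part of the excitatory class in every library, while the next largest was the middle layer-like subclass in C57BL/6J and *Nav1* KO and a subclass led by *Ndst4* in BTBR. Classes of striatal and olfactory bulb neurons were also present, and the mitral or tufted-like class held 39, 564 and 405 nuclei. The excitatory marker *Slc17a7*, a vesicular glutamate transporter, was at 712, 822 and 921 CPM (its UMIs over all UMIs of the class, scaled to a fixed total) in the excitatory class and still at 356, 344 and 380 CPM in the non-neuronal classes together, which should lack it, with median depths of 1398, 1952 and 1858.5 UMIs there. UMIs of neuronal genes in those classes were taken as a background level, and each gene's level in them is set beside its level in neurons. Free RNA, droplets with several nuclei and the nuclei's own RNA were not told apart in it. UMIs of *Slc17a7* and of *Gad1* or *Gad2* together were held by 22.1%, 27.4% and 42.4% of microglia-like nuclei. In astrocyte-like nuclei the shares were 6.09%, 6.98% and 10.7%. The interneuron marker *Gad1* was at 294, 341 and 338 CPM in interneurons, 64.1, 92.3 and 122 CPM in the non-neuronal classes and 11.9, 13.3 and 18.3 CPM in excitatory neurons. Excitatory clusters were named only where *Gad1* and *Gad2* were low beside the glutamate transporters, so their low *Gad1* partly follows from the naming. How far background differed between classes was therefore not read from *Gad1*. The targeted gene *Nav1* was at 353, 236 and 142 CPM in excitatory neurons. Its 3′ counts mostly lie outside the deleted part and do not check the label.

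*Rab3b* was the member that differed most between neuron classes. It was higher in cortical interneurons than in excitatory neurons in all 3 libraries, and among interneurons it was highest in the Sst-like subclass, the interneurons that make somatostatin. In cortical interneurons *Rab3b* was at 38.1, 47.5 and 38.8 CPM. In excitatory neurons it was at 2.59, 3.37 and 3.26 CPM. The ratio of interneurons to excitatory neurons was 14.7 (10.0 to 21.8) in C57BL/6J, 14.1 (10.0 to 19.7) in *Nav1* KO and 11.9 (8.61 to 16.5) in BTBR. The interneuron values lay above the excitatory values in every library, with no overlap of ranges.

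In Sst-like interneurons *Rab3b* was at 107 CPM (76.7 to 145) in C57BL/6J, 112 (79.4 to 153) in *Nav1* KO and 112 (85.2 to 144) in BTBR. After each nucleus was thinned to 1000 UMIs, a *Rab3b* UMI was found in 13.6% (8.29 to 20.7), 10.9% (5.77 to 18.3) and 10.5% (6.36 to 16.1) of these nuclei. In excitatory neurons the shares were 0.281%, 0.442% and 0.453%, and in the non-neuronal classes 0.209%, 0.554% and 0.889%. In no library did the share in the excitatory class as a whole lie above the non-neuronal share beyond counting error. Background need not be the same in both, so this does not show whether excitatory neurons held *Rab3b* RNA of their own. The level in non-neuronal classes, at 4.59, 5.39 and 8.94 CPM, was 1.60 to 2.74 times that in excitatory neurons. The direction was the same as for *Gad1*, which the naming rule kept low in excitatory clusters. Unthinned shares in Sst-like nuclei were 27.2%, 28.1% and 27.3%.

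Against all other cortical interneurons, *Rab3b* in the Sst-like subclass was higher by 5.66, 4.16 and 5.98 times, and it was the only 1 of 7 members counted that passed 2-fold in all 3 libraries. Of all features counted, 3.35% passed 2-fold either way in all 3 libraries in this subclass. The next class in order was the interneuron subclass led by *Unc13c*, at 24.3 to 44.8 CPM, below the Sst-like range of 107 to 112 CPM. That subclass, the mitral or tufted-like neurons and the Pvalb-like interneurons, which make parvalbumin, had overlapping ranges. *Rab3b* was at 11.2, 34.3 and 38.9 CPM in mitral or tufted-like neurons, where the C57BL/6J value rested on 2 counts.

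The Sst-like nuclei held 41 of 67, 39 of 68 and 59 of 95 *Rab3b* counts of the interneurons, and so they weigh on every comparison of another subclass with the rest. In the Vip-like subclass the ratio over all other interneurons was 0.317 (0.0637 to 0.969), 0.317 (0.0638 to 0.969) and 0.464 (0.223 to 0.873), on 3, 3 and 11 counts, and *Rab3b* was the 1 of 7 members past 2-fold there, beside 2.07% of all features. With the Sst-like nuclei left out of the comparison, an alternative chosen after seeing the data, the ratio was 0.661 (0.127 to 2.19), 0.571 (0.111 to 1.87) and 1.13 (0.501 to 2.38), so that the Vip-like level could not be told from that of the remaining interneurons. In the subclass led by *Frem1* the ratios were 0.128 (0.00318 to 0.736), 0.298 (0.0354 to 1.12) and 0.215 (0.0436 to 0.650), on 1 to 3 counts per library, and again 1 of 7 members passed beside 2.58% of all features. Without the Sst-like nuclei they were 0.254 (0.00620 to 1.56), 0.532 (0.0614 to 2.12) and 0.452 (0.0887 to 1.44), each with an interval that included 1. At 5.35, 15.1 and 9.31 CPM in this subclass, *Rab3b* reached the 20 CPM needed to be counted through the other interneurons alone. In C57BL/6J and BTBR, 20 CPM in the others is already past 2-fold. The Vip-like level was 13.2, 16.5 and 20.4 CPM, under 20 CPM in C57BL/6J and *Nav1* KO. Both counts are therefore given as descriptions. Among excitatory subclasses *Rab3b* was under the 20 CPM needed to be counted in any of them. Its highest level there was in layer 6 corticothalamic-like neurons, at 6.73, 7.54 and 8.13 CPM. In middle layer-like neurons it was at 1.49, 1.09 and 0.927 CPM, and the intervals of these subclasses did not overlap in any library.

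**Figure D1:**
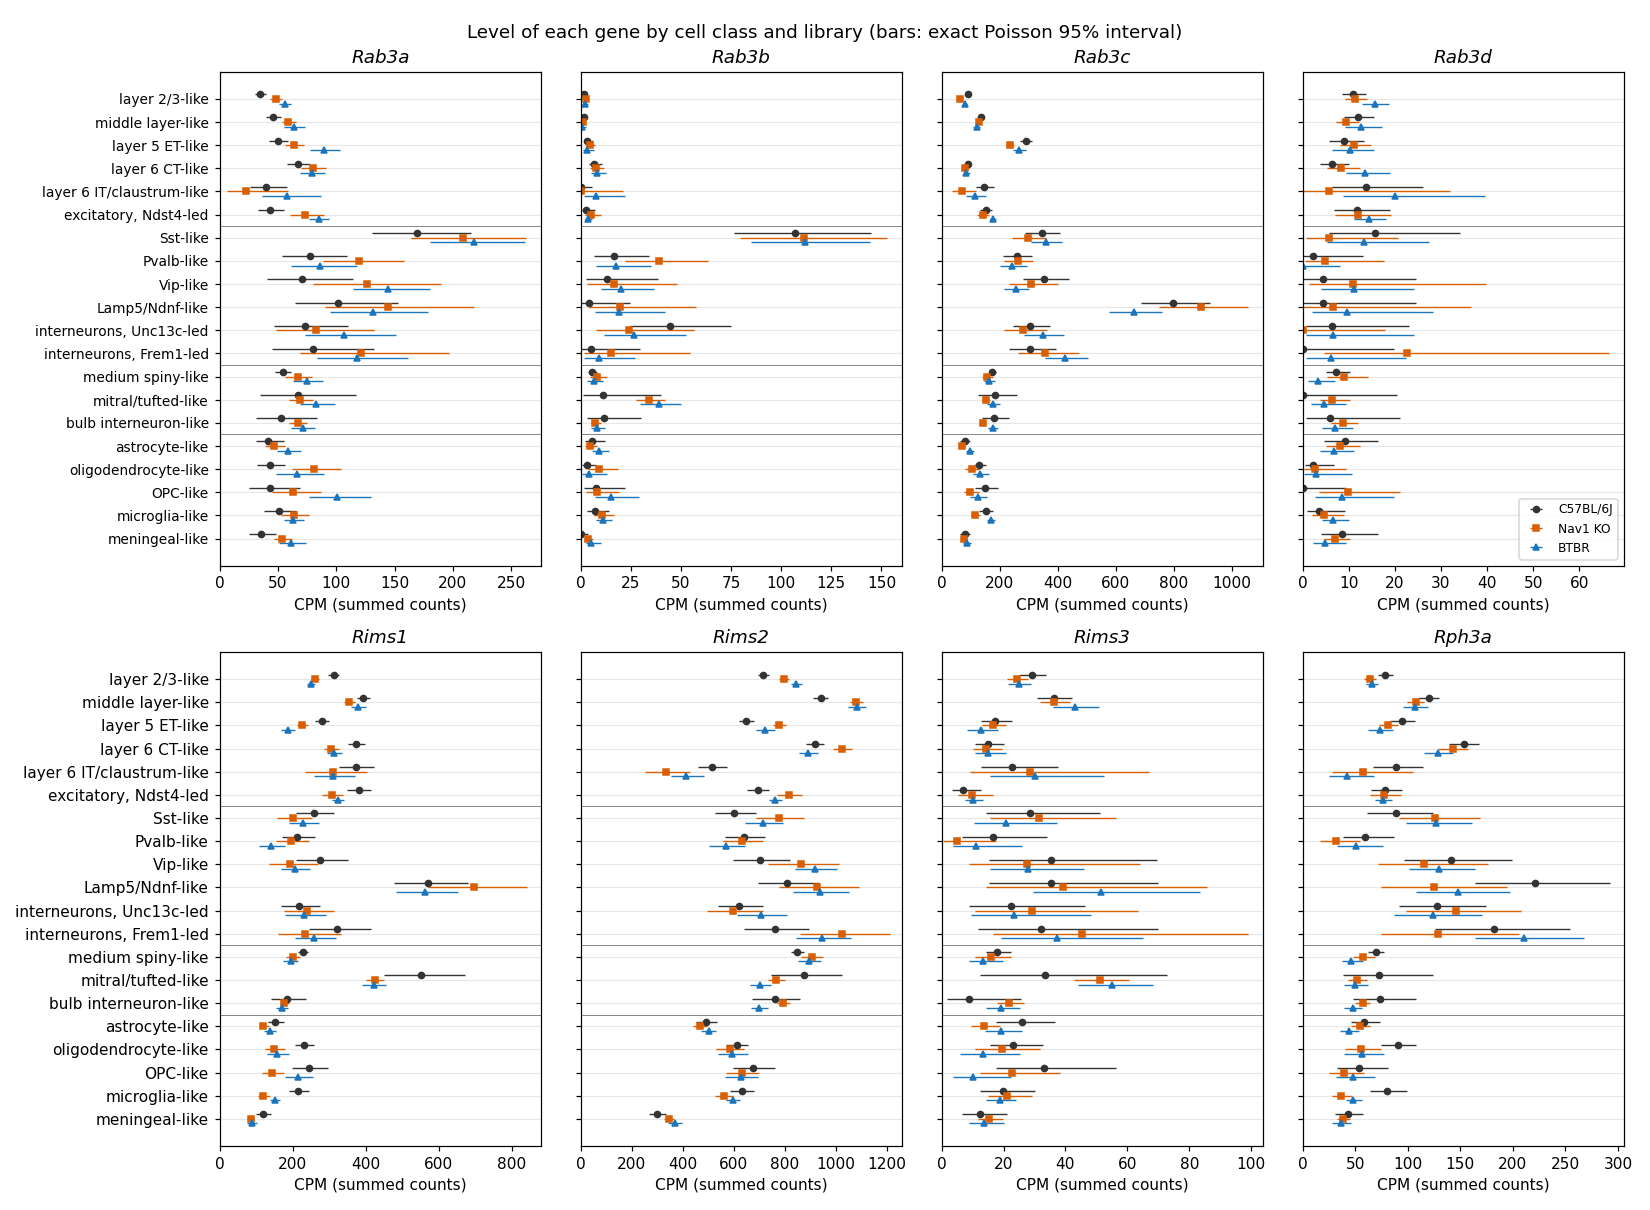
Level of each of the 8 genes in CPM of summed counts (horizontal axis, one panel per gene) by cell class, with 1 point per library and bars for the exact Poisson interval. *Rab3b* stands at 107 to 112 CPM in Sst-like interneurons and under 50 CPM in every other class, while *Rab3c* reaches 662 to 892 CPM in Lamp5 or Ndnf-like interneurons.

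*Rab3c*, a Rab3 GTPase with a less studied role at synapses, was also higher in interneurons, and its highest level was in another subclass, the Lamp5 or Ndnf-like interneurons. In cortical interneurons *Rab3c* was at 372, 355 and 361 CPM, against 139, 120 and 130 CPM in excitatory neurons. The ratio was 2.68 (2.46 to 2.92), 2.97 (2.70 to 3.26) and 2.77 (2.56 to 2.99), so each library showed the difference at nearly the same size. In the non-neuronal classes it was at 113, 85.7 and 126 CPM, which was 0.717 to 0.971 times the excitatory level. The excitatory level was above the pooled background in C57BL/6J and *Nav1* KO, while in BTBR the intervals overlapped, at 125 to 135 CPM in excitatory neurons and 119 to 134 CPM in the non-neuronal classes. Single classes of the pool differed. In C57BL/6J *Rab3c* was at 152 CPM in microglia-like and 150 CPM in oligodendrocyte precursor-like nuclei, higher than the excitatory value. It was at 130 CPM in oligodendrocyte-like, 79.4 CPM in astrocyte-like and 80.0 CPM in meningeal fibroblast-like nuclei.

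In Lamp5 or Ndnf-like interneurons *Rab3c* was at 797 (685 to 923), 892 (748 to 1055) and 662 (575 to 759) CPM, and at 1000 UMIs a UMI was found in 55.6%, 68.9% and 47.3% of nuclei. In non-neuronal nuclei the shares were 10.2%, 6.59% and 9.41%. The next class was the subclass led by *Frem1*, at 305 to 425 CPM, and the ranges did not overlap. Against the other interneurons the ratio was 2.58, 3.06 and 2.09.

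Among excitatory subclasses *Rab3c* was highest in layer 5 extratelencephalic-like neurons, the deep-layer cells that project below the cortex. It was at 289 (269 to 310), 235 (220 to 250) and 267 (246 to 290) CPM there, against 91.3, 65.0 and 81.9 CPM in layer 2/3-like neurons and 91.1, 81.5 and 84.8 CPM in layer 6 corticothalamic-like neurons. The ratio over the other excitatory neurons was 2.58, 2.49 and 2.33. *Rab3c* was the only 1 of 6 members counted that passed 2-fold in this subclass, where 0.534% of all features did. The layer 2/3-like and layer 6 corticothalamic-like levels were at or below those of the non-neuronal classes in the same library.

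*Rab3a* was higher in interneurons than in excitatory neurons in each library, and it was near the non-neuronal level in excitatory neurons. It was at 99.4, 140 and 140 CPM in cortical interneurons and at 45.6, 59.1 and 70.2 CPM in excitatory neurons. The ratio was 2.18 (1.84 to 2.57), 2.37 (2.03 to 2.75) and 1.99 (1.77 to 2.24), so that it passed 2-fold in C57BL/6J and *Nav1* KO and fell just short in BTBR. In the non-neuronal classes *Rab3a* was at 44.2, 57.2 and 64.5 CPM, which was 0.918 to 0.970 times the excitatory level. Shares at 1000 UMIs were 4.83%, 6.66% and 6.82% in excitatory neurons and 4.18%, 5.71% and 5.20% in non-neuronal nuclei. This gene is known as a general neuronal one, while its level in the excitatory class as a whole was close to the background. Excitatory subclasses lay on both sides of the non-neuronal level in each library. *Rab3a* was at 67.0, 80.0 and 79.0 CPM in layer 6 corticothalamic-like neurons. In layer 2/3-like neurons it was at 34.5, 48.2 and 55.7 CPM.

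As for *Rab3b*, the Sst-like subclass was the highest for *Rab3a*, at 169 (131 to 216), 209 (164 to 263) and 218 (180 to 262) CPM. Its 3 library values lay above those of the next class, the Lamp5 or Ndnf-like interneurons, at 102 to 144 CPM. Those rested on 23, 22 and 41 counts, and the comparison is of values and not of their intervals. Against the other interneurons the Sst-like ratio was 2.12, 1.78 and 1.84, and so it passed 2-fold in 1 of 3 libraries. From the Lamp5 or Ndnf-like class downwards, neighbouring classes overlapped in their ranges.

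*Rab3d* was low in every class, and no full order of classes could be read from it. Its excitatory level lay above that of the non-neuronal classes together in each library. The excitatory intervals were 8.94 to 11.9, 9.16 to 11.8 and 12.6 to 15.9 CPM. Those of the non-neuronal classes were 3.41 to 7.52, 5.39 to 8.58 and 4.99 to 8.42 CPM. *Rab3d* was at 10.4, 10.4 and 14.2 CPM in excitatory neurons, 6.25, 6.99 and 8.16 CPM in cortical interneurons and 5.17, 6.85 and 6.54 CPM in the non-neuronal classes. The ratio of interneurons to excitatory neurons was 0.604 (0.296 to 1.10), 0.671 (0.318 to 1.26) and 0.577 (0.347 to 0.907), so that only the BTBR interval lay below 1. It rested on 10 to 20 counts per library in interneurons and was not counted among the members that could pass 2-fold. Its level in the non-neuronal classes was 0.462 to 0.657 times that in excitatory neurons, against 0.413 to 0.499 for *Slc17a7*. The values of both genes were close in C57BL/6J and BTBR, while in *Nav1* KO they were 0.657 and 0.419.

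**Figure D2:**
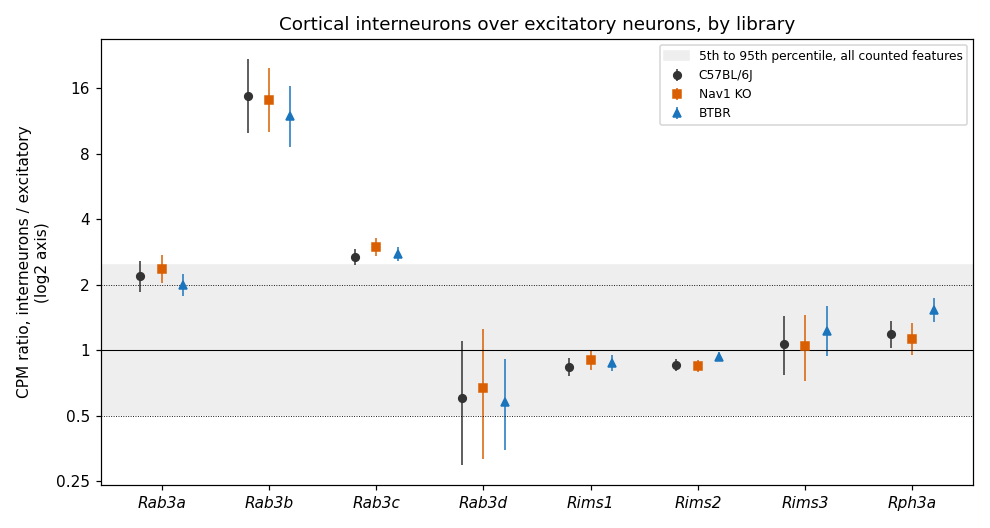
Ratio of CPM in cortical interneurons to CPM in excitatory neurons (vertical axis, log2 scale) for the 8 genes, with 1 point per library and bars for the exact counting interval. *Rab3b* lies at 11.9 to 14.7 and *Rab3c* at 2.68 to 2.97, whereas *Rims1* and *Rims2* lie between 0.838 and 0.933.

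*Rims1* and *Rims2*, which encode the large Rab3-binding scaffolds, were slightly lower in interneurons than in excitatory neurons, and *Rims3* did not differ beyond counting error. *Rims1* was at 289, 259 and 253 CPM in cortical interneurons and 344, 289 and 290 CPM in excitatory neurons, a ratio of 0.838, 0.898 and 0.873. *Rims2* was at 670, 759 and 790 CPM against 784, 895 and 847 CPM, a ratio of 0.855, 0.848 and 0.933. All 6 of these ratios had intervals below 1, and none came near 2-fold. *Rims3* was at 26.7, 25.2 and 26.9 CPM against 25.0, 24.2 and 21.9 CPM, with intervals of the ratio that included 1 in each library.

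Below the class level the Rim genes did differ. *Rims1* was highest in Lamp5 or Ndnf-like interneurons, at 571 (477 to 679), 695 (569 to 841) and 563 (482 to 652) CPM, and the ratio over the other interneurons was 2.31, 3.35 and 2.70. The next class was the mitral or tufted-like neurons, at 421 to 552 CPM, followed by middle layer-like neurons at 355 to 393 CPM. These 3 ranges of library values did not overlap. In C57BL/6J and BTBR the Lamp5 or Ndnf-like interval still reached down into the mitral or tufted-like range. In Lamp5 or Ndnf-like interneurons 3 of 7 members passed 2-fold in all 3 libraries, *Rab3c* and *Rims1* upward and *Rab3b* downward, beside 3.73% of all features. The *Rab3b* ratio there was 0.103 (0.00257 to 0.594) in C57BL/6J, on 1 count, 0.387 (0.0778 to 1.18) in *Nav1* KO, on 3 counts, and 0.464 (0.166 to 1.05) in BTBR, on 6 counts. At 4.43, 19.7 and 19.3 CPM in this subclass, *Rab3b* reached 20 CPM through the other interneurons alone. Its part of the count is given as a description. Without the Sst-like nuclei in the comparison *Rab3b* no longer passed, at 0.204 (0.00497 to 1.25), 0.703 (0.136 to 2.29) and 1.04 (0.353 to 2.53), whereas *Rab3c*, at 2.68, 3.09 and 2.18, and *Rims1*, at 2.35, 3.31 and 2.78, still did. In the non-neuronal classes *Rims1* was at 185, 113 and 138 CPM, or 0.391 to 0.537 times the excitatory level, which is close to the *Slc17a7* values.

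*Rims2* varied less between neuron classes than the other members with high counts. Its highest levels were in middle layer-like neurons, at 939, 1079 and 1082 CPM, and overlapped those of layer 6 corticothalamic-like neurons, at 891 to 1024 CPM. Its lowest neuronal level was in layer 6 intratelencephalic or claustrum-like neurons, at 514, 332 and 414 CPM, which overlapped the meningeal fibroblast-like nuclei at 300 to 368 CPM. In the non-neuronal classes together it was at 526, 458 and 523 CPM, or 0.511 to 0.671 times the excitatory level.

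*Rims3* was at 36.2, 36.4 and 42.9 CPM in middle layer-like neurons and at 6.95, 9.90 and 10.0 CPM in the excitatory subclass led by *Ndst4*. In the latter its ratio over the other excitatory neurons was 0.262 (0.125 to 0.486), 0.395 (0.214 to 0.668) and 0.394 (0.287 to 0.531), and it was the only 1 of 6 members counted past 2-fold, beside 1.48% of all features. *Rims3* reached the 20 CPM needed to be counted through the other excitatory neurons alone. Beside its level in the subclass, 20 CPM in the others is already about 2-fold, so the count is given as a description. The level in the subclass led by *Ndst4* was below the 21.8, 15.9 and 16.7 CPM of the non-neuronal classes. *Rims3* was highest in mitral or tufted-like neurons, at 33.5, 51.1 and 55.1 CPM, with ranges that overlapped those of the next 3 classes.

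*Rph3a*, the rabphilin gene, was somewhat higher in interneurons than in excitatory neurons in C57BL/6J and BTBR, and in *Nav1* KO the interval of the ratio included 1. It was at 122, 101 and 127 CPM in cortical interneurons and 103, 89.2 and 82.9 CPM in excitatory neurons, with a ratio of 1.18 (1.02 to 1.36), 1.13 (0.947 to 1.34) and 1.53 (1.35 to 1.73). The median ratio of all features was 1.08, 1.09 and 1.09. That median lay within the *Rph3a* interval in C57BL/6J and *Nav1* KO and below it in BTBR. *Rph3a* was lowest among interneurons in the Pvalb-like subclass, at 58.9 (38.1 to 86.9), 31.8 (16.9 to 54.4) and 50.9 (32.3 to 76.4) CPM. The ratio over the other interneurons was 0.414, 0.248 and 0.354, and *Rph3a* was the only 1 of 7 members past 2-fold in all 3 libraries there, beside 5.55% of all features. The Pvalb-like level overlapped that of the non-neuronal classes, at 67.2, 42.8 and 45.4 CPM. Shares at 1000 UMIs were 5.88%, 4.44% and 5.33% in Pvalb-like and 5.09%, 3.72% and 3.65% in non-neuronal nuclei.

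Among excitatory subclasses *Rph3a* was highest in layer 6 corticothalamic-like neurons, at 153 (139 to 168), 143 (129 to 158) and 129 (115 to 143) CPM. It was at 78.8, 63.8 and 65.7 CPM in layer 2/3-like neurons. The highest interneuron levels were in the subclass led by *Frem1*, at 182, 129 and 211 CPM, and overlapped those of the Lamp5 or Ndnf-like subclass. No member passed 2-fold in all 3 libraries in layer 6 corticothalamic-like neurons (0 of 6 counted, beside 3.44% of all features), in layer 2/3-like neurons (0 of 6, beside 1.06%), in middle layer-like neurons (0 of 6, beside 1.31%), in layer 6 intratelencephalic or claustrum-like neurons (0 of 6, beside 2.39%) or in the interneurons led by *Unc13c* (0 of 7, beside 1.03%).

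**Figure D3:**
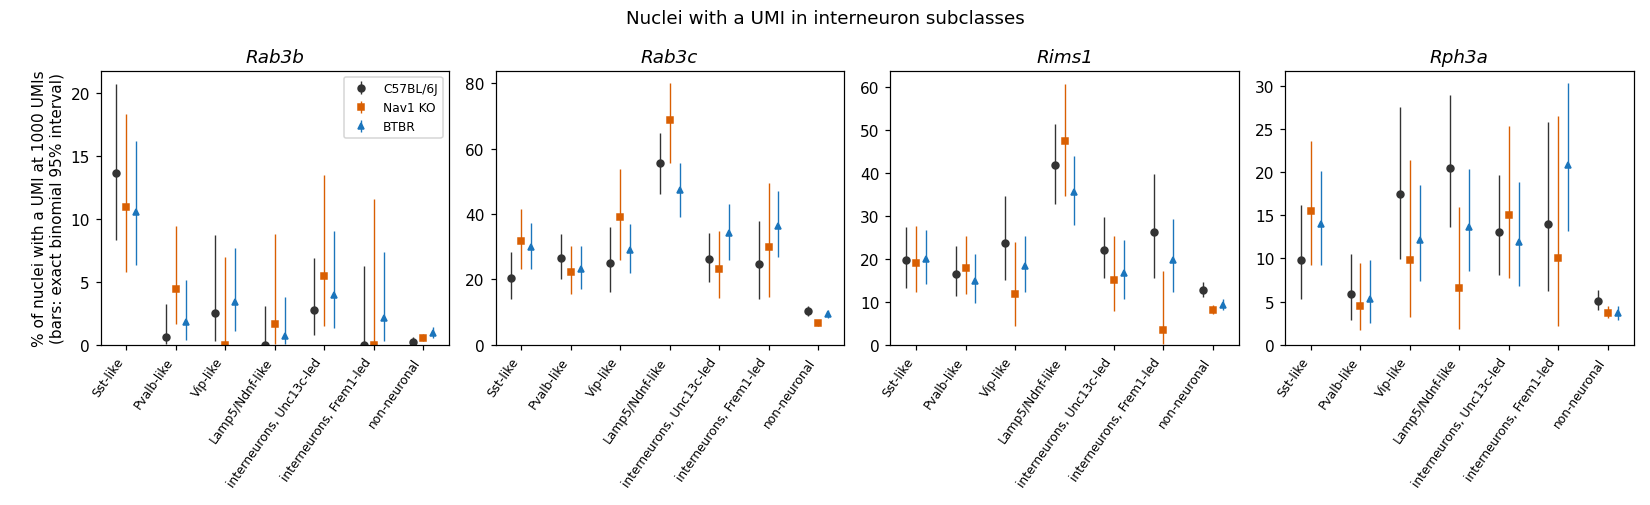
Percentage of nuclei with at least 1 UMI after thinning to 1000 UMIs (vertical axis) for *Rab3b*, *Rab3c*, *Rims1* and *Rph3a* in the interneuron subclasses and the non-neuronal classes, with 1 point per library and bars for the exact binomial interval. *Rab3b* is found in 10.5% to 13.6% of Sst-like nuclei, and *Rab3c* in 47.3% to 68.9% of Lamp5 or Ndnf-like nuclei.

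Across the 8 genes, 7 had enough counts to compare cortical interneurons with excitatory neurons. *Rab3b* and *Rab3c* were at least 2-fold higher in interneurons in all 3 libraries, which is 2 of 7, beside 5.22% of the 7293 features counted. *Rab3b* reached the 20 CPM needed to be counted through interneurons alone. Beside its excitatory level of 2.59, 3.37 and 3.26 CPM, 20 CPM in interneurons is already past 2-fold. The count of 2 is therefore given as a description. None of the 7 was at least 2-fold lower in all 3, beside 2.41% of features. The median ratio of the 7 genes was 1.27, and that of all features was 1.09. No Rim gene reached 2-fold, nor did *Rph3a*.

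The other genes of the pathway were read in 3 lists. The Rab3 cycle list holds genes that act on the GTP cycle and lipid anchor of Rab proteins, such as the exchange factor *Madd*. Of its 11 genes 8 were counted, none passed 2-fold either way, and the median ratio was 1.10. Of 9 other effectors and related GTPases 3 were counted, and *Rab27b*, a GTPase of secretory vesicles that shares effectors with Rab3, was higher in interneurons at 2.46, 2.33 and 2.11 times. All 17 active zone partners of Rim were counted, with a median ratio of 0.906. Of these *Unc13c*, a Munc13 priming factor, was higher at 5.78, 16.5 and 6.09 times, and *Ppfia4*, a liprin scaffold, at 3.27, 3.13 and 3.59 times. *Unc13b*, another Munc13 gene, was lower at 0.408, 0.397 and 0.450 times. *Unc13c* also led 1 interneuron subclass, although neither it nor the members were used to form clusters.

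The *Nav1* KO and BTBR libraries were compared with C57BL/6J within each class, to see whether the genotype or strain came with other levels of these genes. Most members differed little, and *Rab3a* was the member with the largest ratio that was counted in excitatory neurons. There *Rab3a* was at 45.6 CPM in C57BL/6J, 59.1 CPM in *Nav1* KO and 70.2 CPM in the BTBR library, with a ratio of 1.30 (1.19 to 1.42) for *Nav1* KO and 1.54 (1.41 to 1.68) for BTBR. It was the only 1 of 6 members counted past 1.5-fold in BTBR, where 10.2% of all features were, and 0 of 6 passed in *Nav1* KO, where 5.26% did. In the non-neuronal classes together the *Rab3a* ratio was nearly the same, at 1.30 (1.11 to 1.51) and 1.46 (1.25 to 1.71). The part of the background in the excitatory difference was not tested.

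Within the excitatory class the BTBR ratio of *Rab3a* was 1.97 (1.51 to 2.62) in the subclass led by *Ndst4*, 1.79 (1.43 to 2.24) in layer 5 extratelencephalic-like neurons and 1.62 (1.37 to 1.92) in layer 2/3-like neurons. It was 1.38 (1.13 to 1.68) in middle layer-like neurons and 1.18 (0.963 to 1.45) in layer 6 corticothalamic-like neurons. In layer 6 intratelencephalic or claustrum-like neurons it was 1.46 (0.793 to 2.65), so that 4 of 6 intervals lay above 1. For *Nav1* KO the ratio was 1.71 (1.24 to 2.38) in the subclass led by *Ndst4*, 1.28 (1.04 to 1.58) in layer 5 extratelencephalic-like, 1.40 (1.18 to 1.66) in layer 2/3-like and 1.28 (1.08 to 1.52) in middle layer-like neurons. It was 1.20 (0.980 to 1.46) in layer 6 corticothalamic-like and 0.578 (0.147 to 1.67) in layer 6 intratelencephalic or claustrum-like neurons, both with intervals that included 1. In cortical interneurons *Rab3a* was at 1.41 (1.14 to 1.73) times the C57BL/6J level in *Nav1* KO and 1.41 (1.17 to 1.70) times in BTBR.

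The other counted members in excitatory neurons stayed within 1.25-fold of C57BL/6J. *Rims2* was at 1.14 (1.12 to 1.17) times in *Nav1* KO and 1.08 (1.06 to 1.11) times in BTBR. *Rims1* was at 0.839 and 0.843 times, *Rph3a* at 0.865 and 0.803 times, *Rab3c* at 0.863 and 0.939 times and *Rims3* at 0.966 and 0.874 times. The median ratio of all features in *Nav1* KO excitatory neurons was 0.923. Relative to that median *Rab3a* was at 1.41, *Rims2* at 1.24, *Rims1* at 0.908, *Rph3a* at 0.937 and *Rab3c* at 0.935 times, while *Rims3* moved to the other side of 1, at 1.05 times.

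In cortical interneurons 0 of 7 members passed 1.5-fold in *Nav1* KO, beside 13.2% of all features, and 0 of 7 in BTBR, beside 14.0%. *Rab3b* was at 1.25 (0.878 to 1.78) and 1.02 (0.737 to 1.41) times and *Rab3c* at 0.956 (0.849 to 1.08) and 0.971 (0.876 to 1.08) times, so that neither differed beyond counting error. *Rph3a* was at 0.824 (0.663 to 1.02) and 1.04 (0.870 to 1.24) times. With 482 interneuron nuclei in *Nav1* KO, differences smaller than these intervals were not detectable at this depth. In the non-neuronal classes together *Rims1* was at 0.610 and 0.746 times and *Rph3a* at 0.638 and 0.676 times the C57BL/6J level. In both genes these pooled ratios lay further from 1 than in excitatory neurons. By single class *Rph3a* was at 0.927 and 0.758 times in astrocyte-like and 0.893 and 0.851 times in meningeal fibroblast-like nuclei. It was at 0.454 and 0.599 times in microglia-like, 0.614 and 0.623 in oligodendrocyte-like and 0.731 and 0.896 in oligodendrocyte precursor-like nuclei. The mix of classes in the pool differed between libraries, and its part was not tested.

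**Figure D4:**
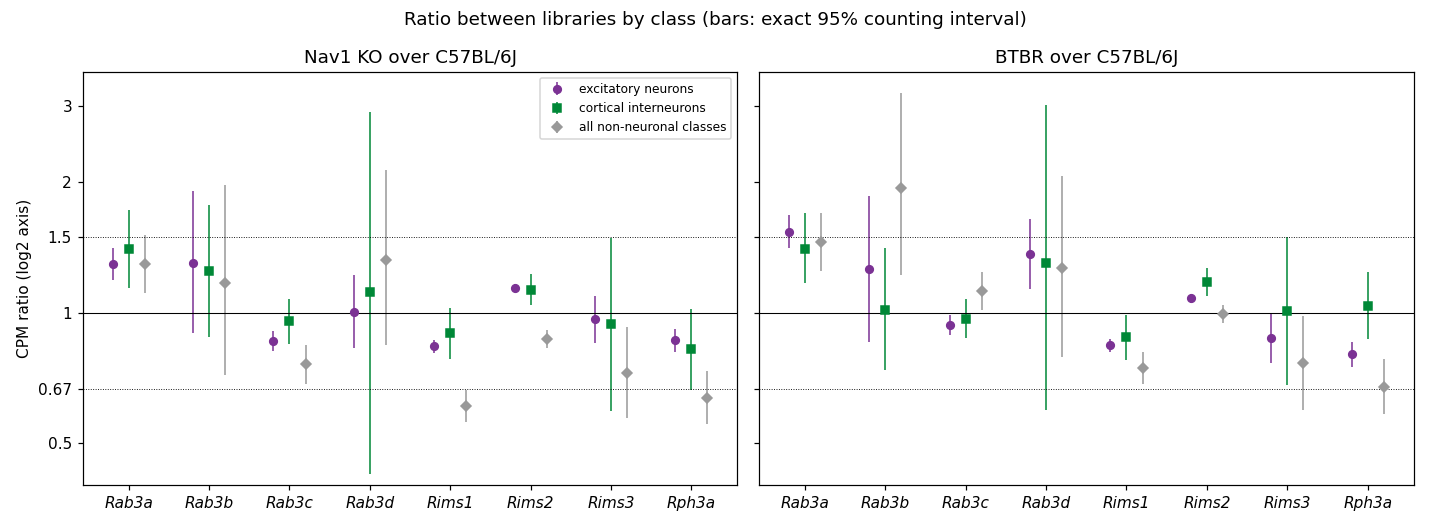
Ratio of CPM to that of C57BL/6J (vertical axis, log2 scale) for the 8 genes in excitatory neurons, cortical interneurons and the non-neuronal classes, in 1 panel for *Nav1* KO and 1 for BTBR, with bars for the exact counting interval. *Rab3a* lies at 1.30 and 1.54 in excitatory neurons and at 1.30 and 1.46 in the non-neuronal classes.

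Of the Rab3 cycle, effector and active zone lists, 8, 2 and 16 genes were counted in *Nav1* KO excitatory neurons, 8, 3 and 17 in *Nav1* KO interneurons, 9, 2 and 17 in BTBR excitatory neurons and 8, 3 and 17 in BTBR interneurons. Of these, *Unc13a*, the main Munc13 gene of cortical excitatory synapses, was the only gene past 1.5-fold in *Nav1* KO excitatory neurons, at 190 CPM against 304 CPM in C57BL/6J, a ratio of 0.625 (0.601 to 0.650), beside 5.26% of all features. In BTBR its ratio was 0.670 (0.644 to 0.697), which did not pass, and the intervals overlapped. The median ratio of all features was 0.923 in *Nav1* KO and 1.007 in BTBR excitatory neurons. Divided by these medians, the *Nav1* KO ratio would not pass and the BTBR ratio would, so the calls are not read as a difference between the libraries. In *Nav1* KO interneurons *Unc13c* was at 1.89 (1.54 to 2.32) times and *Sytl2*, a synaptotagmin-like effector of Rab27, at 1.55 (1.14 to 2.11) times, beside 13.2% of all features. Without such a division no gene of the lists passed 1.5-fold in BTBR in either class, beside 10.2% in excitatory neurons and 14.0% in interneurons.

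The genes most like each member in pattern were found by Pearson correlation of log2(CPM + 1) over 68 pairs of class and library among 13035 genes. The pairs share libraries and depth, so the values are descriptions. *Rab3a* was most like *Stmn3* (0.838), *Atp1b1* (0.805) and *Mdh1* (0.798), and *Rab3b* was most like *Atp1b1* (0.751), *Sema4g* (0.737) and *Stmn3* (0.736), so that both shared *Stmn3* and *Atp1b1*. *Rab3c* was most like *5330434G04Rik* (0.832), *Cntnap2* (0.826) and *Clstn3* (0.825). *Rims1* was most like *Cadps* (0.788), *Syt1* (0.772) and *Snap25* (0.767). *Rims2* was most like *Gpr158* (0.755), *Elmod1* (0.741) and *Myt1l* (0.738), and *Rph3a* was most like *Mtus2* (0.858), *Npdc1* (0.826) and *Sntg1* (0.824). The best values were lower for *Rims3*, with *Plxna3* (0.561), *Epha3* (0.548) and *Mgll* (0.530), and for *Rab3d*, with *Rexo4* (0.624), *L3mbtl1* (0.617) and *Gm28050* (0.609).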

How the data were processed

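The authors deposited filtered count matrices (UMIs per gene and nucleus) made by 10x snRNA-seq with Cell Ranger 6.0.0 and the mm10 reference, per the submitters' processing notes. Whether intronic reads were counted is not given in the sources used here. A nucleus was kept if it had 200 genes or more and less than 10% mitochondrial counts. The 3 libraries were merged and clustered on 2000 variable genes, without the 8 members and the pathway lists, with 30 principal components, 20 neighbours and the Leiden method at resolution 1.0 (leidenalg 0.10.2, igraph 0.11.9). Clusters of 50 or more nuclei were named from marker lists, by thresholds set after seeing the data, and 0 doublet callers were run.

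Counts were summed per class and library and given as CPM with exact Poisson intervals. Nuclei were thinned to 1000 UMIs before the share holding a UMI was taken (2394, 1249 and 2096 nuclei were shallower and left out) with Clopper-Pearson intervals, and the interval of a ratio came from the exact binomial split of its 2 counts. All intervals are 95%. A feature was counted where it had at least 20 CPM and 20 counts. With 1 library per group no test was made and no p-value is given. The folds looked for were 2 between classes and 1.5 between libraries.

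Named genes were the 8 members, the 3 genes most correlated with each member, and genes of the pathway lists past those folds. *Rab3d* reached 20 CPM only in some libraries of small classes. The members and lists were chosen with earlier results of these data known. An item of the lists is not reported here. Kept counts were 38701384, 50962468 and 48936236 in the C57BL/6J, *Nav1* KO and BTBR libraries. Steps were tested on simulated data. Alternatives were a limit of 5% mitochondrial counts, other clusterings and class rules, other scales (edgeR 4.0.16 in R 4.3.3), no count limit and 500 UMIs. Values were computed with pandas 2.3.3, scipy 1.17.1 and numpy 2.4.6 under Python 3.11.15.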

Additional observations from a re-analysis of the deposited data

Results flagged for a closer look

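In *Nav1* KO against C57BL/6J, *Rims2* was at 1.14 (1.12 to 1.17) times in excitatory neurons but at 0.870 (0.831 to 0.912) times in the non-neuronal classes, so the 2 ratios differed by 1.31 times and lay on opposite sides of 1. The same held against the non-neuronal classes for cortical interneurons, at 1.13 (1.04 to 1.23) times, by 1.30 times, and for striatal medium spiny-like neurons, at 1.07 (1.01 to 1.13) times, by 1.23 times. In BTBR against C57BL/6J, *Rab3c* was at 1.12 (1.02 to 1.24) times in the non-neuronal classes and 0.939 (0.890 to 0.992) times in excitatory neurons, which differ by 1.19 times. In *Nav1* KO the *Rims2* ratio was 0.951 in astrocyte-like, 0.890 in microglia-like and 0.956 in oligodendrocyte-like nuclei. It was 0.936 in oligodendrocyte precursor-like, 0.735 in endothelial-like, 1.00 in olfactory ensheathing-like and 1.15 in meningeal fibroblast-like nuclei. The pool held 558 and 1283 meningeal fibroblast-like and 478 and 262 oligodendrocyte-like nuclei in C57BL/6J and *Nav1* KO. The part of this mix in the pooled ratios was not tested. These differences between classes were not tested, since each group was 1 library.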

How the results depend on the processing

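No paired analysis was possible because each group was 1 library. Leaving out 1 library at a time, the members at least 2-fold higher in interneurons in the libraries that remained numbered 2 to 3, and those at least 2-fold lower 0 to 0. The third gene was *Rab3a*, without the BTBR library. It was also added with each library clustered alone and with classes set per nucleus. In *Nav1* KO interneurons, 1 member passed 1.5-fold under 5% mitochondrial counts, 1 with each library clustered alone, 1 with classes set per nucleus, and 1 with the mean over nuclei of each nucleus's share of counts, against 0 as reported. In the first, second and last of these it was *Rab3a*, at 1.502, 1.505 and 1.518. With classes set per nucleus *Rab3a* was at 1.383 and did not pass. There *Rab3d*, *Rims1* and *Rims3* were past 1.5-fold before the count limits were applied. The other counts of members kept their value under every alternative run, and no direction reversed for a called value. With 10 principal components and resolution 0.3 no cluster met the naming rule for cortical interneurons, so those values could not be had. The ratio of interneurons to excitatory neurons for *Rab3b* was 13.5 as the geometric mean of the libraries, 8.42 with classes set per nucleus, and 15.0 without nuclei that held UMIs of *Slc17a7* and of *Gad1* or *Gad2* (1148 excitatory and 351 interneuron nuclei), and by shares of nuclei it was 10.8 at 1000 UMIs and 13.6 at 500 UMIs. The libraries differed more at 500 UMIs. Interneuron shares of *Rab3b* were then 2.45%, 1.66% and 1.95%, against 0.0782%, 0.212% and 0.189% in excitatory neurons. In Sst-like nuclei they were 8.09%, 0.877% and 4.65%. The share of all features past 1.5-fold was 29.1% in *Nav1* KO excitatory neurons when every feature with a count was used, against 5.26%. Low counts of *Rab3d* and of *Rab3b* outside Sst-like nuclei limit what can be read from them.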

Other observations

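A cluster of 2896, 1016 and 1391 nuclei was led by mitochondrial genes and stayed unnamed. In it *Rab3a* was at 46.3, 69.8 and 68.7 CPM, *Rab3b* at 2.25, 2.13 and 5.07 CPM, *Rab3c* at 126, 97.8 and 113 CPM, *Rims1* at 267, 218 and 223 CPM and *Rims2* at 688, 769 and 744 CPM. *Rph3a* was at 79.9, 73.0 and 76.9 CPM, *Rims3* at 20.3, 22.0 and 20.7 CPM and *Rab3d* at 6.76, 12.8 and 12.1 CPM. When these nuclei were counted as excitatory neurons, the ratio of interneurons to excitatory neurons was 13.5 for *Rab3b*, 2.86 for *Rab3c* and 2.16 for *Rab3a*.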
